A study of Homo sapiens with 3 samples.

Results

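A set of 10 genes of DNA methylation was followed in C33A cells, a human cervical carcinoma line that carries no human papillomavirus and lacks functional RB protein. The genes are those of a named pathway, and no signal threshold was used to take them: DNMT1, DNMT3A and DNMT3B, which write the mark, UHRF1, which brings DNMT1 to replicated DNA, MBD1 and MBD2, which read it, and TET1, TET2, TET3 and TDG, which remove it. All 10 members were measured, among 18417 genes on the arrays. Total RNA came from 3 separate cultures of untreated cells in exponential growth, 1 Affymetrix Human Gene 1.0 ST array per culture, so that the data hold 1 line in 1 condition and no contrast. The line is a single tumour-derived one, and its values stand for no normal cervical tissue.

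Methylation of cytosine in CpG dinucleotides is copied after each round of replication by DNMT1 and set on new sites by DNMT3A and DNMT3B. Proteins with a methyl-CpG-binding domain attach to the mark and bring in repressive complexes. The TET enzymes oxidize the methyl group, and the glycosylase TDG cuts out the oxidized base so that base excision repair can put back a plain cytosine. Tumour cells are known for loss of methylation over much of the genome together with gain at the promoters of some genes. The arrays measured transcripts and not the mark itself.

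Levels are given as log2 signal after Robust Multichip Average (RMA) normalization by the authors, 1 unit being a doubling of signal. The 3 arrays were close to each other, with Pearson's r across all probe sets between 0.993 and 0.994, and across genes the median SD over the cultures was 0.08. The number of arrays, 3, limits the precision. Since each probe set binds with its own strength, the order of levels between genes is approximate, and no fold change between genes is given. The values carry no detection call. As a background, 452 protein-coding genes from families with little expression outside their own tissues were taken (receptors for smell and taste, beta-defensins and keratin-associated proteins), and the 95th percentile of their levels was 6.41. The median gene was at 6.91 and the top decile began at 9.83.

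The labelled cell type was checked against marker genes. Of 9 epithelial markers measured, 2 lay above the background of silent families, KRT18 at 7.75 ± 0.11 (SD, n = 3) and KRT14 at 6.86 ± 0.08 (SD, n = 3). The epithelial adhesion genes CDH1, at 4.95 ± 0.09 (SD, n = 3), and EPCAM, at 4.52 ± 0.29 (SD, n = 3), lay below it, so the arrays did not show most of the markers of an epithelial cell. None of 5 endothelial markers lay above it. Among the fibroblast markers 1 of 6 did, COL1A1 at 7.24 ± 0.14 (SD, n = 3), and among the leukocyte markers 1 of 5, PTPRC at 8.82 ± 0.11 (SD, n = 3).

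All 10 members had a mean level above the background of silent families, where 56.5% of all genes lay. Against the 99th percentile of the silent families, 7.89, the count was 5. Of the members, 9 were above the median gene, against 50% of all genes by definition, but 3 were when only genes above the background were ranked with them, and 2 were in the top decile, against 10%. The members ran between 6.87 and 9.86, with a median of 7.88. On gene means they thus fell into an upper set of 3 genes (MBD2, DNMT1 and MBD1) and a lower set of 7, with none between 8.09 and 9.49. This split rests on averaged probe sets. UHRF1 and TET2 had 2 probe sets each, and the higher ones had means of 10.02 and 8.80, the latter inside the gap.

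The writers differed in their place among all genes. DNMT1, the maintenance methyltransferase, had 9.80, 9.86 and 9.90 on arrays 1, 2 and 3, a mean of 9.85 ± 0.05 (SD, n = 3). It was higher than 90.2% of all genes on the mean, and its lowest array was just under the start of the top decile. DNMT3A, one of the de novo methyltransferases, had 7.59, 7.96 and 8.00, a mean of 7.85 ± 0.23 (SD, n = 3), with array 1 below the other arrays. DNMT3B, the other de novo enzyme, had 6.93, 6.92 and 6.77 and the lowest mean of the 10 members, 6.87 ± 0.09 (SD, n = 3). It lay 0.46 above the background of silent families and 0.04 below the median gene, less than its SD. The ranges of the 3 writers over the arrays did not overlap.

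**Figure D1:**
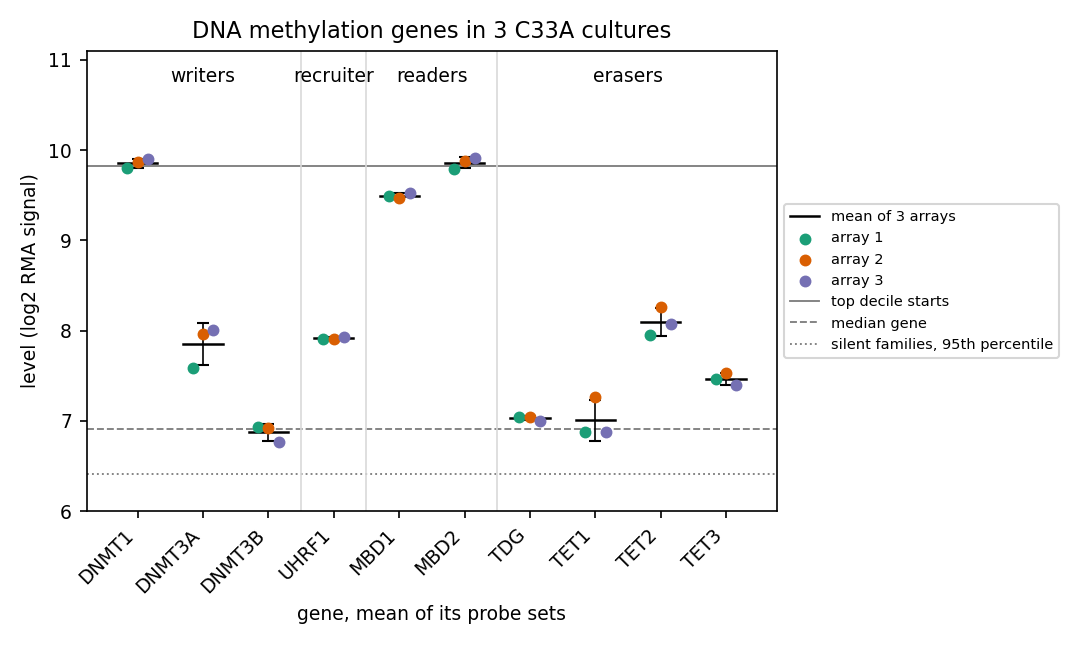
Level (y axis, log2 RMA signal) of the 10 members (x axis, by role) on each array, with the mean and SD of 3 arrays. DNMT1, MBD1 and MBD2 lie at 9.49 or above, while DNMT3B, TET1 and TDG lie near the median gene at 6.91, and all means are above the silent families.

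UHRF1, a protein that recognizes half-methylated DNA behind the replication fork and recruits DNMT1 there, was measured by 2 probe sets that disagreed. Probe set 8024900 had 9.88, 10.07 and 10.10 on the 3 arrays, a mean of 10.02 ± 0.12 (SD, n = 3), above 91.3% of the probe sets with 1 symbol. Probe set 8032922 had 5.94, 5.75 and 5.76, a mean of 5.82 ± 0.11 (SD, n = 3), below the background of silent families. The difference of higher minus lower was 4.20 ± 0.22 (SD, n = 3), with no overlap, so that no array had a signal near the gene mean of 7.92. The platform table pairs the higher probe set with 5 RefSeq transcripts of UHRF1 and the lower with none, only with 3 other database sequences. Of 598 genes with exactly 2 probe sets, 5.35% had a wider gap than UHRF1, and the median gap was 0.59. The gene mean also hid the spread over cultures, which was 0.01 (SD, n = 3), because the higher probe set was lowest on array 1 and the lower probe set highest there. On probe sets with a RefSeq transcript alone, a choice made after the values were seen, UHRF1 was the highest of the 10 members, and it lay in the top decile.

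TET2 was the other member with 2 probe sets. Probe set 8096675 had 8.66, 8.92 and 8.82, a mean of 8.80 ± 0.13 (SD, n = 3). Probe set 8096669 had 7.24, 7.60 and 7.31, a mean of 7.39 ± 0.19 (SD, n = 3). Both were highest on array 2 and lowest on array 1, and both lay above the background on every array. The gap of 1.41 ± 0.10 (SD, n = 3) was wider than the median gap of genes with 2 probe sets, and 27.8% of these genes had a wider one. The lower probe set is paired with 2 RefSeq transcripts of TET2 and the higher with 1. An antisense RNA gene, TET2-AS1, is annotated beside TET2 and was not measured apart here.

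**Figure D2:**
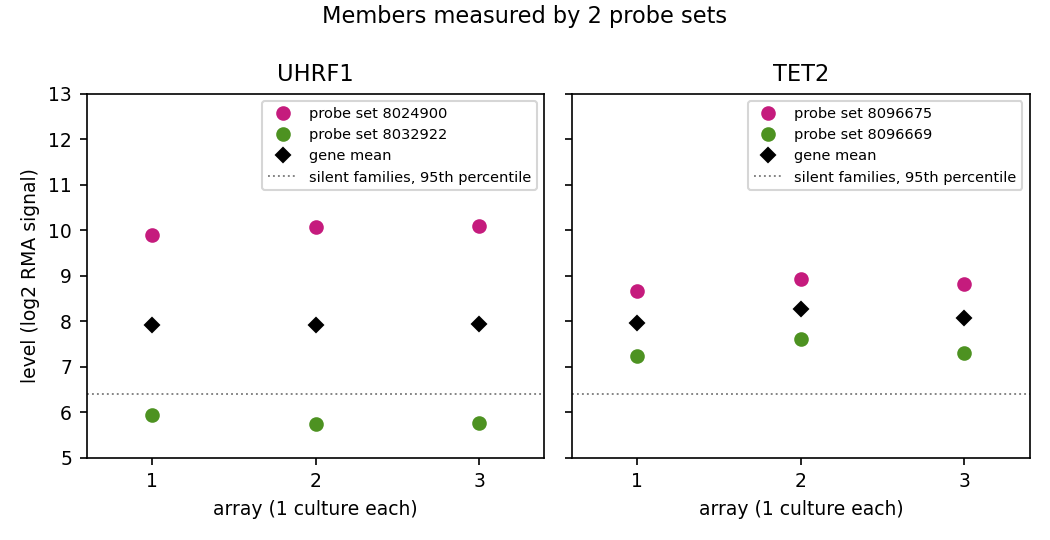
Level (y axis, log2 RMA signal) on each array (x axis) of the 2 probe sets of UHRF1 (left) and TET2 (right), with the gene mean as diamonds. The UHRF1 probe sets lie 4.20 apart, on either side of the background line, whereas both TET2 probe sets lie above it, 1.41 apart.

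The readers were both in the upper set of gene means. MBD2, which binds methylated CpG and is part of the NuRD repressor complex, had 9.79, 9.88 and 9.92, a mean of 9.86 ± 0.06 (SD, n = 3), the highest gene mean among the members. Its range overlapped that of DNMT1, and its lowest array was also under the start of the top decile. MBD1, which binds methylated DNA and is known to work with the histone methyltransferase SETDB1, had 9.49, 9.46 and 9.52, a mean of 9.49 ± 0.03 (SD, n = 3). All of its arrays lay under all arrays of DNMT1 and MBD2 and over all arrays of the remaining 7 members, on gene means.

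The erasers lay between the median gene and the upper set. TET2 had 7.95, 8.26 and 8.07 as the mean of its probe sets, 8.09 ± 0.16 (SD, n = 3). TET3, the dioxygenase known for acting in the zygote, had 7.46, 7.53 and 7.39, a mean of 7.46 ± 0.07 (SD, n = 3). TET1, the member of the family known from embryonic stem cells, had 6.87, 7.27 and 6.88, a mean of 7.01 ± 0.23 (SD, n = 3). Array 2 stood apart for TET1, and arrays 1 and 3 were below the median gene. The glycosylase TDG had 7.04, 7.05 and 7.00, a mean of 7.03 ± 0.02 (SD, n = 3), 0.62 above the background of silent families. TDG has an annotated pseudogene, TDGP1, and TET1 and DNMT3A have one each (TET1P1 and DNMT3AP1). Whether these add to the signal was not tested.

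In order of gene mean, the members were MBD2, DNMT1, MBD1, TET2, UHRF1, DNMT3A, TET3, TDG, TET1 and DNMT3B. Of the 9 pairs of neighbours in this order, 4 had overlapping ranges over the arrays: MBD2 with DNMT1, UHRF1 with DNMT3A, TDG with TET1, and TET1 with DNMT3B. With 3 arrays a two-sided exact sign-flip test cannot give a p below 0.25, so neighbours were not tested. The place of UHRF1 in the middle rests on its averaged probe sets.

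DNMT3A, TET1 and TET2 varied between the cultures more than most genes of like level. The SD of DNMT3A was 0.23 against a median of 0.07 in its decile and exceeded that of 98.6% of the genes there. For TET1 it was 0.23 against 0.08, above 97.4% of the decile, and for TET2 0.16 against 0.07, above 92.8%. In DNMT3A array 1 deviated by -0.27 from the mean of the gene, while in TET1 array 2 deviated by 0.26. TET2 had both features, with array 1 lowest and array 2 highest. MBD2 and DNMT1 were also above the median of their decile, with SDs above those of 73.7% and 56.8% of its genes. The SDs of TDG, MBD1 and DNMT3B were under the median of their deciles, and so were those of TET3 and, on its gene mean, UHRF1. The higher probe set of UHRF1 alone had an SD of 0.12, against a median of 0.04 for genes of decile 10, where its level lies. Its lower probe set had 0.107, against 0.108 in decile 4. Array 1 was the lowest of the 3 for 5 of the 10 members, against 31.6% of all genes, and array 3 the highest for 5, against 28.3%. The medians of the members' deviations were only -0.03, 0.03 and -0.01 on the 3 arrays. The cultures share 1 condition, and no cause of these differences was tested.

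**Figure D3:**
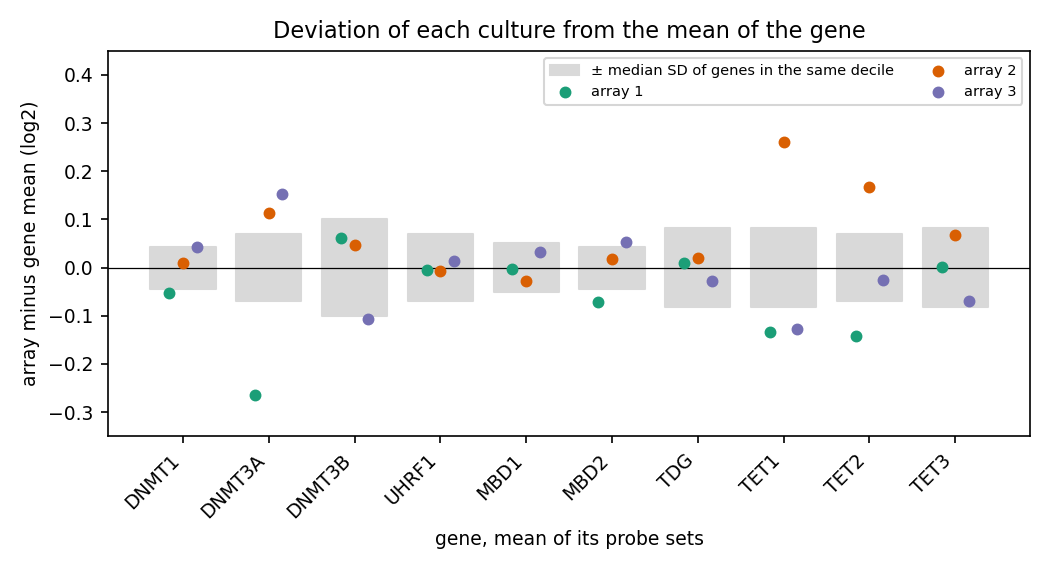
Level on each array minus the mean of the gene (y axis, log2) for the 10 members (x axis), with the median SD of all genes in the same decile as a grey band. DNMT3A on array 1 and TET1 on array 2 lie farthest from 0, at -0.27 and 0.26. UHRF1 is shown as the mean of its probe sets, which hides the spread of each.

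Family relatives of the members lay between 5.57 and 8.95, none of them in the top decile. DNMT3L, which has no catalytic activity and stimulates the de novo enzymes in germ cells, was at 5.69 ± 0.15 (SD, n = 3), and TRDMT1, which methylates transfer RNA, at 5.57 ± 0.04 (SD, n = 3), both below the background of silent families. UHRF2, the paralogue of UHRF1, was at 7.92 ± 0.03 (SD, n = 3). Among other genes with a methyl-CpG-binding domain, MBD4, a glycosylase, was at 8.95 ± 0.04 (SD, n = 3) and MBD3, a NuRD subunit, at 8.79 ± 0.03 (SD, n = 3). MBD6 was at 8.11 ± 0.08 (SD, n = 3) and MBD5 at 7.15 ± 0.02 (SD, n = 3), so that all 4 relatives of MBD1 and MBD2 measured lay above the background and below both of them.

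Among 9 partners and relatives of the writers and UHRF1, DNMT3L, TRDMT1 and UHRF2 included, 6 lay above the background, against 56.5% of all genes, and 2 in the top decile, against 10%. The highest was USP7, a deubiquitinase that stabilizes DNMT1 and UHRF1, at 11.98 ± 0.03 (SD, n = 3), and the lowest was CDCA7L, at 3.21 ± 0.10 (SD, n = 3). The list had a median of 8.24, against 6.91 over all genes. Of 8 further methyl-CpG readers listed, 7 were measured and all 7 were above the background (56.5% of all genes), none of them in the top decile (10%), from MBD5 up to ZBTB33, which encodes the zinc finger reader Kaiso, at 9.36 ± 0.06 (SD, n = 3).

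The partners of MBD2 in the NuRD complex, which joins histone deacetylases to a nucleosome remodeller, had the highest median of the lists, 10.86. All 11 were above the background, against 56.5% of all genes, and 8 were in the top decile, against 10%. RBBP4, a histone chaperone subunit, was highest at 11.83 ± 0.03 (SD, n = 3), and the remodeller CHD3 was lowest at 8.39 ± 0.11 (SD, n = 3). Many of these subunits serve other complexes too.

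Base excision repair genes, a list that joins the steps after a glycosylase to glycosylases that start repair at other lesions, were above the background in 12 of 13 cases, against 56.5% of all genes, with a median of 8.79 against 6.91. In the top decile were 2 of the 13, against 10% of all genes. The abasic endonuclease APEX1 was highest at 11.62 ± 0.07 (SD, n = 3) and the glycosylase NEIL1 lowest at 5.76 ± 0.05 (SD, n = 3). TDG itself lay below 12 of these 13 genes. Genes that supply the methyl donor S-adenosylmethionine were above the background in 7 of 8 cases (56.5% of all genes), 4 of them in the top decile (10%). MAT2A, the synthetase of most tissues, was at 11.79 ± 0.02 (SD, n = 3), and MAT1A, the synthetase of liver, at 5.28 ± 0.07 (SD, n = 3). Of 8 cofactor and partner genes of the TET enzymes, 7 were measured. All of these were above the background (56.5% of all genes), 2 of them in the top decile (10%). They ran from D2HGDH at 7.29 ± 0.09 (SD, n = 3) to IDH1, which makes the 2-oxoglutarate that TET enzymes consume, at 10.85 ± 0.06 (SD, n = 3). No test of a list was made.

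**Figure D4:**
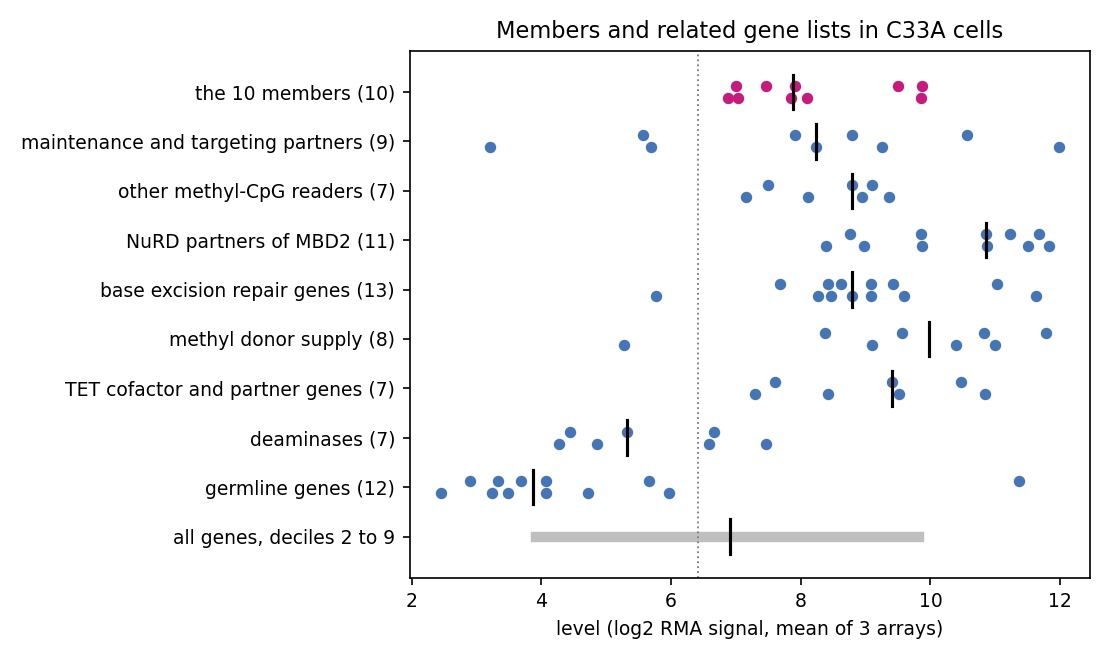
Mean level over 3 arrays (x axis, log2 RMA signal) of each measured gene in the 10 members and in 8 related lists (y axis, number measured in brackets), with the median of each list as a black line. The grey bar spans deciles 2 to 9 of all genes and the dotted line is the background at 6.41. NuRD partners have the highest median, 10.86, and the germline genes the lowest, 3.88.

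CHD8 is a chromatin remodeller whose target genes in C33A cells the study listed from chromatin immunoprecipitation on promoter arrays. UHRF1, TET1, TET2 and TDG are on that list, which makes 4 of 10 members, against 9.63% of all measured genes. The share of targets among all genes increases with level. In deciles 6 and 7, where these 4 members lie on gene means, it was 8.31% and 12.9%. The 3 members of highest gene mean are not on the list, nor are DNMT3A, DNMT3B and TET3. A gene missing from it may still bind CHD8, and a measured gene with no promoter on the promoter arrays counts as missing in each share. On the probe set paired with RefSeq transcripts, UHRF1 would lie in decile 10, where the share was 30.1%. Of 74 genes measured in the related lists, 9 are on it, or 12.2%: USP7, ZBTB4, RBBP4, APEX1, PARP1, MAT2B, MTR, OGT and CXXC4.

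The promoters of the 4 listed members are shown for their CpG content, since CpG is where the mark is written, read and removed. Each line holds the 120 bases before the most upstream RefSeq start of the gene, 5′ to 3′ on its own strand, with CpG dinucleotides in capitals. The lines are from RefSeq on GRCh38.p14, all 4 on the plus strand, at chr19:4909381-4909500 for UHRF1, chr12:103965752-103965871 for TDG, chr10:68560217-68560336 for TET1 and chr4:105145755-105145874 for TET2.
UHRF1: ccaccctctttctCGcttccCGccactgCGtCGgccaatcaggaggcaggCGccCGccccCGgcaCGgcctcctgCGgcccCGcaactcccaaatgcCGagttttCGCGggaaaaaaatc
TDG: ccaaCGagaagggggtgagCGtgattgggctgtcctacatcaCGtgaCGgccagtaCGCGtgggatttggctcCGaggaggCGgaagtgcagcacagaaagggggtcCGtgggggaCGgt
TET1: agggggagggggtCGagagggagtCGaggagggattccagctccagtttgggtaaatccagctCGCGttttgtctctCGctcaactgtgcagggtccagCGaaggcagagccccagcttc
TET2: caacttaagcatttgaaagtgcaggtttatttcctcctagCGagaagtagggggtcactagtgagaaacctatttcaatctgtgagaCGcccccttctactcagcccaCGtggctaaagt

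These stretches held 13 CpG in UHRF1, 10 in TDG, 6 in TET1 and 3 in TET2. In the whole 300-base window, from 250 bases before the start to 50 after it, the 10 members held between 3 CpG (DNMT3B) and 45 (TET3), against a median of 23 over 14239 genes with a window, and 5 of the 10 were above that median. UHRF1 had 36 CpG, more than 82.5% of genes, DNMT1 had 30 and MBD2 had 32. DNMT3B had 3, in a window of 61.7% GC at chr20:32779602-32779901, where 9.18% of genes had fewer. It was the only window of DNMT3B among those used, and any start of the gene farther upstream was not searched. The value of 3 may therefore not be that of its main promoter. The range over the members and the count of 5 above the median take DNMT3B at this window. Several members have more than 1 annotated start, and the count depends on it: the second window of TET2 held 35 CpG against 13 in the most upstream one, and the windows of DNMT3A held from 18 to 46. Which start C33A cells use was not measured, and neither was methylation of any of these sites.

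**Figure D5:**
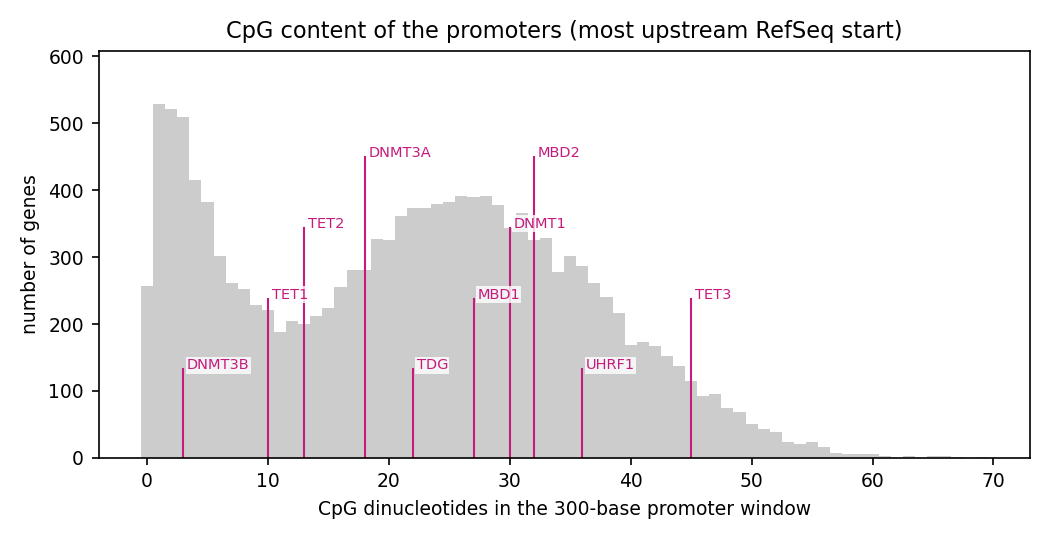
Number of CpG dinucleotides in the promoter window (x axis) for all measured genes with a window (grey bars, y axis, number of genes), with the members as labelled lines of arbitrary height. The only window used for DNMT3B, at 3, lies at the CpG-poor end and TET3, at 45, at the CpG-rich end. The DNMT3B window may not be the main promoter of the gene.

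DNMT1 and UHRF1 are known from other work to be under the control of E2F factors, which RB restrains. The 3 sequences TTTCCCGC, TTTGGCGC and TTTCGCGC, forms of the E2F site, were searched on both strands of every window. They share most of their letters, but no member window held more than 1 of them. DNMT1 and UHRF1 were the 2 members with a match in any window, against 4.61% of all genes. The bases from 40 before the most upstream start to 10 after it are shown for both, with the match in capitals, at chr19:10194944-10194993 on the minus strand for DNMT1 and at chr19:4909461-4909510 on the plus strand for UHRF1.
DNMT1: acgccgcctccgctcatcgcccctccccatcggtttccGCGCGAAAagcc
UHRF1: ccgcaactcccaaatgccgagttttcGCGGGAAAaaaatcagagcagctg

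The match in DNMT1 is TTTCGCGC read on the other strand and that in UHRF1 is TTTCCCGC read on the other strand. A second window of UHRF1 held TTTCGCGC. Of all windows, 3.47% held any of the 3 sequences. A match says only that the letters are there, and binding of E2F at these promoters was not measured on the arrays.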

How the data were processed

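Total RNA of 3 cultures was labelled and hybridized by the authors to Affymetrix Human Gene 1.0 ST arrays, and the deposited values are log2 intensities after RMA, which corrects background, brings the arrays to 1 distribution and summarizes each probe set. They were further handled with oneChannelGUI. The sources used here do not give the versions. Of 33297 probe sets, 19460 had a single gene symbol in the annotation of the platform and were used, 1754 with several symbols and 12083 not listed there were left out. Symbols were updated through RefSeq of GRCh38.p14 (18388 of 18417 genes found), and probe sets of a gene were averaged. All samples form 1 group, so levels, ranks and counts were described without a test. The CHD8 target list of the study's supplement (1965 genes, 6 without a match) was joined by accession, symbol or synonym. Promoter windows are RefSeq's, and the most upstream start of a gene means the most upstream among the windows used. Named genes were the 10 members, their family relatives, and the highest and lowest gene of each list; genes named beyond this were chosen after their values were seen. Protein sequences were planned and are not used here. The members and lists were chosen with earlier results of these data known. The ranking functions were tested on simulated data. Alternatives left out each array, took the highest probe set, centred the arrays, took the median of arrays, changed the background or the genes ranked and, chosen after seeing the data, kept probe sets with a RefSeq transcript. Python 3.11.15, NumPy 2.4.6, pandas 2.3.3 and matplotlib 3.10.9 were used.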

Additional observations from a re-analysis of the deposited data

How the results depend on the processing

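All 10 members stayed above the background without any 1 array (10 to 10), with the highest probe set, with centred arrays and with the median of arrays. They also did with probe sets that have a RefSeq transcript and with olfactory receptor genes alone as the background, a lower bound of 5.38. The families differed, and keratin-associated protein genes alone had a 95th percentile of 7.96. The gene means of MBD2, DNMT1, MBD1 and TET2 lay above that value. Those of UHRF1, DNMT3A, TET3, TDG, TET1 and DNMT3B lay below it. Against the 99th percentile of the silent families, 7.89, the count was 5. In the top decile the count was 2 (2 to 2 without 1 array) in every setting but one, none being there when only genes above the background and the members were ranked, but with the highest probe set, or with RefSeq transcripts alone, the 2 were UHRF1 and MBD2, not DNMT1. The count above the median gene was 8 to 10 without 1 array, and 3 when only genes above the background and the members were ranked. The order kept 6 to 10 of its 10 places without 1 array, the lowest without array 1. It kept 5 with the highest probe set, 5 with RefSeq transcripts alone and 6 with the median of arrays, since UHRF1 took the first place in the 2 probe set alternatives and close neighbours changed places in the third. The level of UHRF1 was 10.02 in both, and that of TET2 8.80 with its highest probe set. No paired analysis was possible because there is only 1 group. The arrays carry no depth, and a level near the background of silent families cannot be told apart from background.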

Other observations

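Germline genes that are kept off by promoter methylation in most somatic cells were mostly below the background of silent families in C33A cells. Of 12 measured, 11 lay below it, against 43.5% of all genes, among them the RNA-binding protein gene DAZL at 4.72 ± 0.10 (SD, n = 3) and the lowest, the meiotic gene SYCP1, at 2.44 ± 0.0017 (SD, n = 3). The cancer-testis gene MAGEA4 had 11.35, 11.35 and 11.38 on the 3 arrays, a mean of 11.36 ± 0.02 (SD, n = 3), in the top decile, while MAGEA1 of the same family was at 5.67 ± 0.21 (SD, n = 3). Probe sets that several genes share were left out of all counts, but those of MAGEA3 with MAGEA6 had means of 9.36 and 9.87, those of CTAG1B with CTAG1A and CTAG2 a mean of 7.04, and one shared by 12 GAGE genes a mean of 8.52, all above the background. These were looked at after the values of MAGEA4 were seen. Promoter methylation was not measured.

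Cytidine deaminase genes, some of which have been discussed as a route to demethylation, were also measured. Of 7 measured, 3 lay above the background (56.5% of all genes) and none in the top decile (10%), from APOBEC3G at 4.28 ± 0.04 (SD, n = 3) to APOBEC3F at 7.46 ± 0.11 (SD, n = 3).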
